A study of Rattus with 18 samples.

Results

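Glomeruli taken 4 days after an antibody against Thy1 were compared with glomeruli taken 3 days after it. The comparison uses 6 of the 18 arrays of a rat time course, the 3 arrays titled as day 4 and the 3 titled as day 3. The day 4 group is SD rats of 200 g given the anti-Thy1 antibody and killed on day 4, and the day 3 group is SD rats of 200 g given the same antibody and killed on day 3. Every array of both groups therefore carries the antibody, and no saline control enters the difference. The other arrays of the course are days 1, 2 and 5 after the antibody and a saline control at day 0, with 3 arrays each. The labels describe 6 rats at each time point, with 3 glomeruli from each rat. Since they do not tie an array to a rat, the p-values here cover only the variation from array to array, some of which may be technical. Levels are log2 processed intensities relative to the 75th percentile of the array, so that 0 is that percentile. Values of 3 arrays are given for replicates 1, 2 and 3 of day 4 and for replicates 2, 3 and 4 of day 3, in that order, by the numbers in the titles. A gene was called when its adjusted p (limma, Benjamini-Hochberg over all genes and transcripts) was under 0.05.

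Thy1 sits on the surface of rat mesangial cells, contractile cells that lie between the glomerular capillaries and support them. The antibody fixes complement on these cells and destroys many of them. Leukocytes, chiefly macrophages, then enter the glomerulus, the remaining mesangial cells divide, and matrix proteins such as collagens and fibronectin are laid down before the lesion is repaired. In whole glomeruli, fewer cells of a type and less RNA per cell cannot be told apart.

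The probes of 4 genes are shown because the results turn on them. Krt72 and Tsg101 were higher on day 4 and also on day 2, which was scanned with it, and Dnase1l3 and Gbp5 had their highest mean on day 3 and their lowest on day 4. Each probe is printed 5′ to 3′ as the array files give it, with its position in rat build rn4 from the same files. The Krt72 and Tsg101 positions cover more bases than the probe holds. An annotation of that build was not used here, so exons are not named. The Krt72 probe lies at chr7:140472292-140473278 and the Tsg101 probe at chr1:97446466-97447310, both on the minus strand. The Dnase1l3 probe lies at chr15:18935163-18935222 and the Gbp5 probe at chr2:240442556-240442615, both on the plus strand.
Krt72: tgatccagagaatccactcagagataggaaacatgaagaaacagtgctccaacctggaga
Tsg101: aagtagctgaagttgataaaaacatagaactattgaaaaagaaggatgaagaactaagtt
Dnase1l3: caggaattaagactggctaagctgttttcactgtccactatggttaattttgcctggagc
Gbp5: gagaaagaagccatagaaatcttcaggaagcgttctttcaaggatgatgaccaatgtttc
The share of G and C was 45% in the Krt72 probe, 28.3% in the Tsg101 probe, 43.3% in the Dnase1l3 probe and 40% in the Gbp5 probe.

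Of 41012 probes, 26111 to 27273 were well above background on each of the 6 arrays, and no spot was saturated. One array stood apart. Day 4 replicate 1 correlated at 0.973 and 0.979 with the other day 4 arrays across 21735 probes, while those 2 correlated at 0.991 with each other. The correlations of day 4 replicate 1 with the day 3 arrays were 0.947, 0.959 and 0.954. It lay on another slide than the other day 4 arrays, together with the 3 day 2 arrays. In C1qb day 4 replicate 1 was at 2.62, within the saline arrays (3.68, 2.45 and 2.46). In Col1a1 it was at 1.57, also within them (1.76, -0.06 and 1.10). It lay above the saline arrays in Ccl2 (2.53 against -0.24, -0.96 and -0.29) and Lox (-0.79 against -2.30, -2.33 and -1.29). These genes were chosen after their values were seen, and likeness to saline over all genes was not tested. Days 4 and 2 were scanned on one scan day, and days 3, 0, 1 and 5 on another, so that a difference between days 4 and 3 and a difference between scan days cannot be told apart. The 8 spike-in controls bright enough to read differed by -0.26 to 0.15 between days 4 and 3, and none separated the groups.

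Of 23220 genes and transcripts tested, 696 were called between days 4 and 3, or 3%. Of these, 379 were higher on day 4 (1.63%) and 317 were lower (1.37%). The count fell to 96 (66 higher, 30 lower) without day 4 replicate 1, and 93 of those were among the 696. It was 188 without day 4 replicate 3, 134 without day 3 replicate 4, 375 without day 3 replicate 2 and 450 without day 3 replicate 3. A fit of the 6 arrays alone, with 4 residual degrees of freedom against 12, called 14. The 3 arrays of day 4 lay wholly above those of day 3 in 3866 genes (16.6%) and wholly below them in 3367 (14.5%). The median difference of all genes and transcripts was 0.04.

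Many inflammatory genes were lower on day 4, and matrix genes showed little common movement. The medians of the lists of macrophage, lymphocyte, Fc receptor, interferon and adhesion genes lay between -1.81 and -1.11, with calls on the lower side only. Other inflammatory lists did not share this: chemokines and cytokines had 2 called higher and 2 lower, MHC class II genes 1 higher and 0 lower, neutrophil markers 0 called with a median of -0.09, and complement genes a median of -0.38 with 5 of 16 positive. The medians of the 5 lists of matrix genes (28, 16, 26, 14 and 19 tested) lay between -0.06 and 0.19, with 2 members called, both higher. Of all genes, 1.63% were called higher and 1.37% lower. In the same order of matrix lists, day 4 lay wholly above day 3 in 4, 3, 2, 5 and 2 genes. It lay wholly below in 0, 2, 2, 2 and 2. The shares of all genes were 16.6% above and 14.5% below. Without day 4 replicate 1 the matrix medians lay between -0.01 and 0.28, with 0 called. With day 4 replicate 1 included, the calls thus lay on the inflammatory side of a passage from inflammation to matrix more than on its matrix side. Most of them were lost without day 4 replicate 1, as were most calls over all genes (96 in place of 696). Leaving out other arrays also lost calls (134 without day 3 replicate 4). The effect of fewer arrays was not separated from dependence on a given array. Without day 4 replicate 1 the calls numbered 0 in place of 2 for macrophage markers and 0 in place of 1 for T, B and NK cells. They numbered 1 in place of 7 for Fc receptors and kinases and 1 in place of 6 for interferon genes. Adhesion molecules had 0 in place of 3. All these differences also run between scan days. Within a scan day, day 4 minus day 2 medians lay between -1.19 and -0.38 in the inflammatory lists named first. In the matrix lists they lay between 0 and 0.62. In the other inflammatory lists they were -0.01 for chemokines and cytokines, 0.15 for MHC class II, -0.19 for complement and -0.22 for neutrophil markers. Day 5 minus day 3 medians, also within a scan day, lay between -1.92 and -0.77 in the lists named first. They lay between -0.19 and 0.45 in the matrix lists. In the other inflammatory lists they were -0.73, -1.04, -0.19 and 0.79, in the same order. Both comparisons reuse the day 4 or the day 3 arrays. The lists named first were set apart by their day 4 minus day 3 medians. The day 5 arrays also differed among themselves. Laptm5, a macrophage marker chosen after its values were seen, was at 3.4, 3.1 and 4.44 on day 5. It was at 3.4, 2.71 and 2.4 on the saline arrays. A gene that missed the threshold is not thereby shown to be unchanged.

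**Figure D1:**
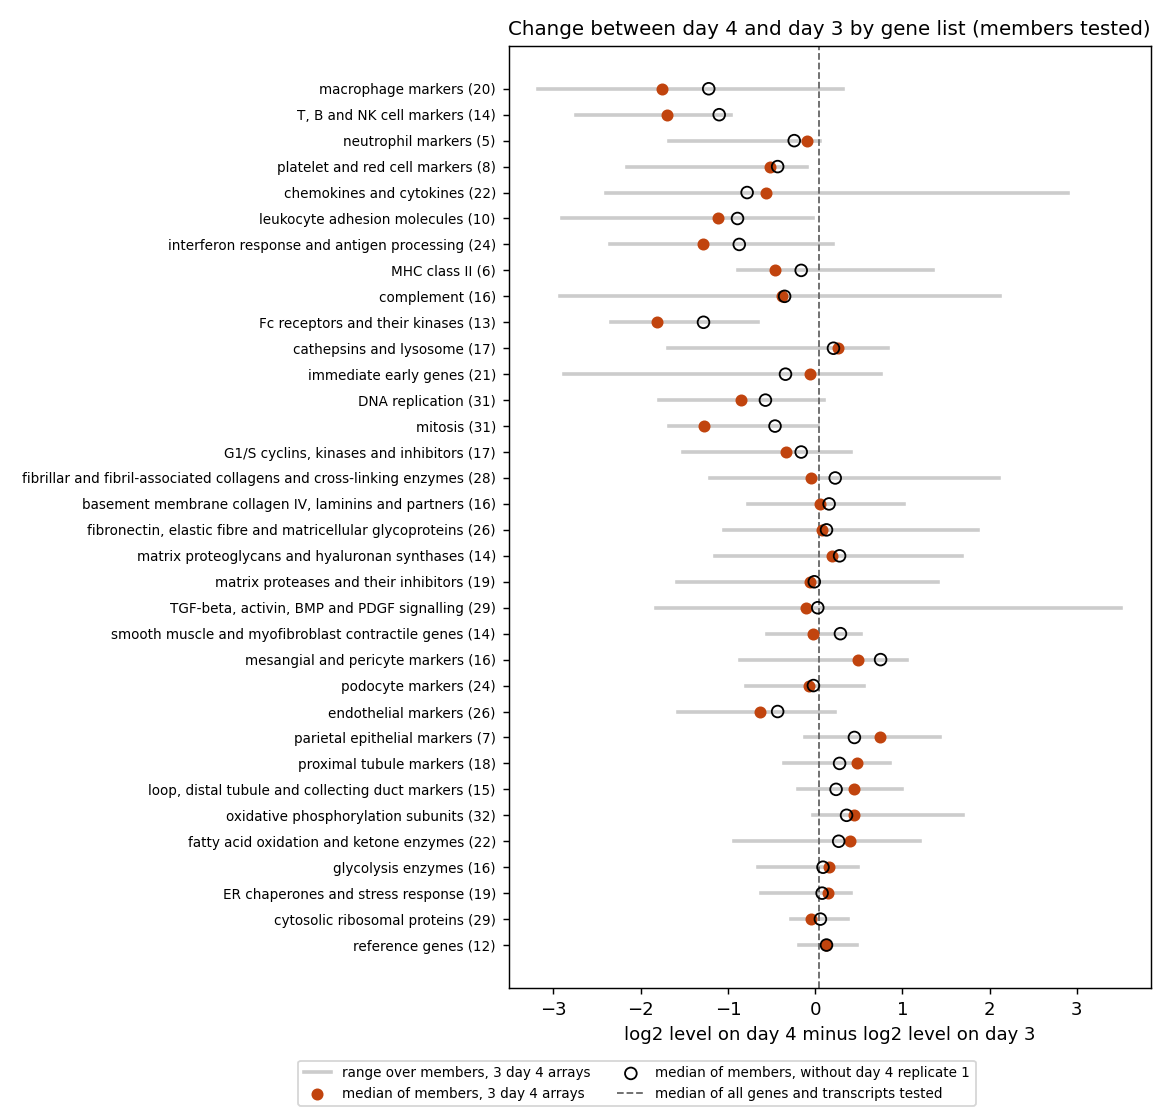
Log2 level on day 4 minus log2 level on day 3 for 34 gene lists (vertical axis, with the members tested). Filled points are the median of the members with all 3 day 4 arrays, open points the median without day 4 replicate 1, grey bars the range over members, and the dashed line the median of all genes tested (0.04). The macrophage median is -1.76, and -1.22 without that array.

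Macrophage markers were lower as a group. Of 23 listed, 20 were tested. The arrays of day 4 lay wholly below those of day 3 in 15 of the 20, against 14.5% of all genes. Of the 20, 2 were called lower, against 1.37% of all genes. Adgre1, the adhesion receptor known as F4/80, was at -1.97, -0.29 and -0.37 on the day 4 arrays, against 1.35, 1.10 and 1.13 on the day 3 arrays. Its difference was -2.07 ± 0.53 SE (4.20-fold lower, adjusted p = 0.049). Laptm5, a lysosomal membrane protein of blood cells, was at 2.27, 3.89 and 3.67 on day 4, against 5.11, 5.02 and 5.00 on day 3. It fell by 1.77 ± 0.42 (3.41-fold, adjusted p = 0.036). In both genes the groups did not overlap and day 4 replicate 1 was the lowest array. The larger differences of Gpnmb, a glycoprotein of activated macrophages (-3.18 ± 0.90, adjusted p = 0.069), and C1qb, a chain of the first complement component (-2.51 ± 0.80, adjusted p = 0.098), did not pass. Cd68, a lysosomal protein of macrophages, differed by -2.04 ± 0.56 (adjusted p = 0.063).

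Day 4 replicate 1 was the lowest of the 3 day 4 arrays in 20 of the 20 macrophage markers, against 7757 of 23192 genes with a value on all 6 arrays. The summed signal of the list, as a log2 level, was 5.61, 7.97 and 7.53 on the day 4 arrays, against 8.70, 8.66 and 8.86 on the day 3 arrays. Without that array the median difference was -1.22 in place of -1.76, and 0 members were called, with Adgre1 at an adjusted p of 0.22 and Laptm5 at 0.16. Direction was thus kept in the median, and the calls were not.

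Fc receptors and the kinases that pass on their signal had the largest share of calls among the lists. These receptors bind the tails of antibodies. The arrays of day 4 lay wholly below those of day 3 in 13 of 13 genes, against 14.5% of all genes. Of the 13, 7 were called lower, against 1.37% of all genes. The genes called include the signalling proteins Btk, Vav1, Fgr, Syk, Lyn and Lcp2, the last 2 named here after their values were seen. Of the receptor chains 0 were called, with Fcgr3a at -2.34 (adjusted p = 0.075) and Fcer1g, the shared signalling chain, at -1.81 (adjusted p = 0.080), both also named after their values were seen. Btk, a kinase downstream of B cell and Fc receptors, was at -5.38, -3.59 and -3.38 on day 4, against -2.28, -2.06 and -2.25 on day 3. It fell by 1.92 ± 0.43 (3.77-fold, adjusted p = 0.032), and the groups did not overlap. Btk was well above background on 2 of the 3 day 4 arrays. Vav1, a guanine nucleotide exchange factor of blood cells, fell by 1.93 ± 0.49 (adjusted p = 0.046). Fgr, a Src-family kinase, fell by 1.91 ± 0.49 (adjusted p = 0.050, below the threshold before rounding). Syk, the kinase that docks on the receptors' signalling tails, was chosen here after its values were seen, because it had the smallest adjusted p of the list. It was at -1.86, -2.24 and -2.16 on day 4, against -0.96, -1.0 and -0.89 on day 3, a difference of -1.14 ± 0.17 (adjusted p = 0.0057). In Syk day 4 replicate 1 was the highest and not the lowest of the day 4 arrays. Without that array the median of the list was -1.28 in place of -1.81, and 1 member was called.

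Markers of T, B and NK cells had a median difference of -1.70 over the 14 tested of 19 listed. Day 4 lay wholly below day 3 in 7 of them, against 14.5% of all genes. Il2rb, a chain of the receptors for interleukins 2 and 15, was at -4.19, -2.66 and -2.72 on day 4, against -0.61, -0.88 and -1.17 on day 3. It was the 1 member called (-2.31 ± 0.50, 4.94-fold lower, adjusted p = 0.028), against 1.37% of all genes called lower. Gzmb, a protease of cytotoxic granules, differed by -2.74 ± 0.76 (adjusted p = 0.066). Gzmc, a related granzyme that was among the largest falls, differed by -2.35 ± 0.55 (adjusted p = 0.036), and was well above background on 2 of the 3 day 4 arrays. Without day 4 replicate 1 the median of the list was -1.10 and 0 were called. Of the 11 neutrophil markers 5 were tested and 0 called, with a median of -0.09, and of the 11 platelet and red cell markers 8 were tested and 0 called, with a median of -0.52.

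Interferon response and antigen processing genes were lower on day 4. These genes are switched on by interferons and include the machinery that loads peptides on MHC class I. Day 4 lay wholly below day 3 in 21 of the 24 tested, against 14.5% of all genes. Of the 24, 6 were called lower, against 1.37% of all genes. Gbp5, a guanylate-binding protein, was at -4.28, -3.57 and -3.57 on day 4, against -1.67, -1.41 and -1.29 on day 3. It fell by 2.35 ± 0.36 (5.11-fold, adjusted p = 0.0057), and by 2.12 without day 4 replicate 1 (adjusted p = 0.033). Tap1, a peptide transporter, fell by 1.64 ± 0.38 (adjusted p = 0.034), Gbp2 by 1.57 ± 0.39 (adjusted p = 0.042) and Ifit2, an interferon-induced protein, by 1.31 ± 0.32 (adjusted p = 0.039). Day 4 replicate 1 was the lowest day 4 array in 24 of the 24 genes. Without it the median was -0.87 in place of -1.29, and Gbp5 alone of the list was called.

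MHC class II genes presented a mixed picture. Ciita, the coactivator that switches them on, was at -3.08, -3.41 and -3.22 on day 4, against -4.34, -4.57 and -4.84 on day 3, and rose by 1.35 ± 0.30 (adjusted p = 0.032). RT1-Da, a class II chain, differed by -0.52 ± 0.50 (adjusted p = 0.60). The median of the 6 genes tested was -0.46. Ciita differed by 0.54 between days 2 and 1, by 0.59 between days 4 and 2 (adjusted p = 0.41) and by -0.97 between days 5 and 3 (adjusted p = 0.22), so that its means were highest on the 2 days scanned together. Its call was lost without day 4 replicate 1 (1.27, adjusted p = 0.14), and the median of the list was then -0.16.

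Chemokines and cytokines moved in both directions, with 2 of the 22 tested called higher and 2 lower. Of all genes, 1.63% and 1.37% were so called. Cxcl13, which attracts B cells, was at 0.92, 4.46 and 2.94 on day 4, against 0.59, -0.47 and -0.50 on day 3. It rose by 2.90 ± 0.63 (7.49-fold, adjusted p = 0.025). Its day 4 arrays spread over more than 3 units, with replicate 1 the lowest. The rise was 3.83 without replicate 1 (adjusted p = 0.0055) and 2.06 without replicate 2 (adjusted p = 0.054), and the call was also lost without day 4 replicate 3, day 3 replicate 3 or day 3 replicate 4. Ccl20, a ligand of the receptor Ccr6, was at 1.52, 0.45 and 0.75 on day 4, against -3.01, -1.03 and -0.64 on day 3, a rise of 2.47 ± 0.57 (adjusted p = 0.035). Its means were highest on days 4 and 2, which were scanned together, and it differed by 2.70 between days 2 and 1 (adjusted p = 0.058) and by 1.89 between days 4 and 2 (adjusted p = 0.19). Il1rn, the natural antagonist of interleukin 1, was at -2.24, -0.30 and -0.07 on day 4, against 1.52, 1.21 and 1.85 on day 3. It fell by 2.40 ± 0.53 (5.27-fold, adjusted p = 0.028). Csf1, the growth factor of macrophages, lay at 1.56, 1.74 and 1.61 on day 4, against 2.55, 2.53 and 2.46 on day 3, and fell by 0.88 ± 0.16 (adjusted p = 0.014). The 2 probes of Csf1 gave -0.88 and -0.39. Ccl2, which attracts monocytes, differed by -1.46 ± 0.47 (adjusted p = 0.10), and Il1b by -1.15 ± 0.33 (adjusted p = 0.074). Without day 4 replicate 1 Cxcl13 alone of the list was called, with Ccl20 at an adjusted p of 0.16, Il1rn at 0.12 and Csf1 at 0.071.

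Adhesion molecules that let leukocytes bind the vessel wall were lower, with a median of -1.11. Of 10 tested, 3 were called lower, against 1.37% of all genes. Sele, the selectin that activated endothelium displays, was at -4.76, -6.37 and -3.16 on day 4, where 1 of 3 arrays was well above background, against -1.68, -2.22 and -1.71 on day 3. Its difference was -2.90 ± 0.66 (adjusted p = 0.034), the same size without day 4 replicate 1 (adjusted p = 0.13). Icam1, a ligand of leukocyte integrins, fell by 0.88 ± 0.22 (adjusted p = 0.041). In the complement list 2 of 16 were called lower, Cfp (properdin, which stabilises the alternative pathway convertase) by 2.43 ± 0.51 (adjusted p = 0.022) and C2 by 2.23 ± 0.57 (adjusted p = 0.048). With day 4 replicate 1 left out, 0 adhesion genes (median -0.89) and 0 complement genes (median -0.35) were called.

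**Figure D2:**
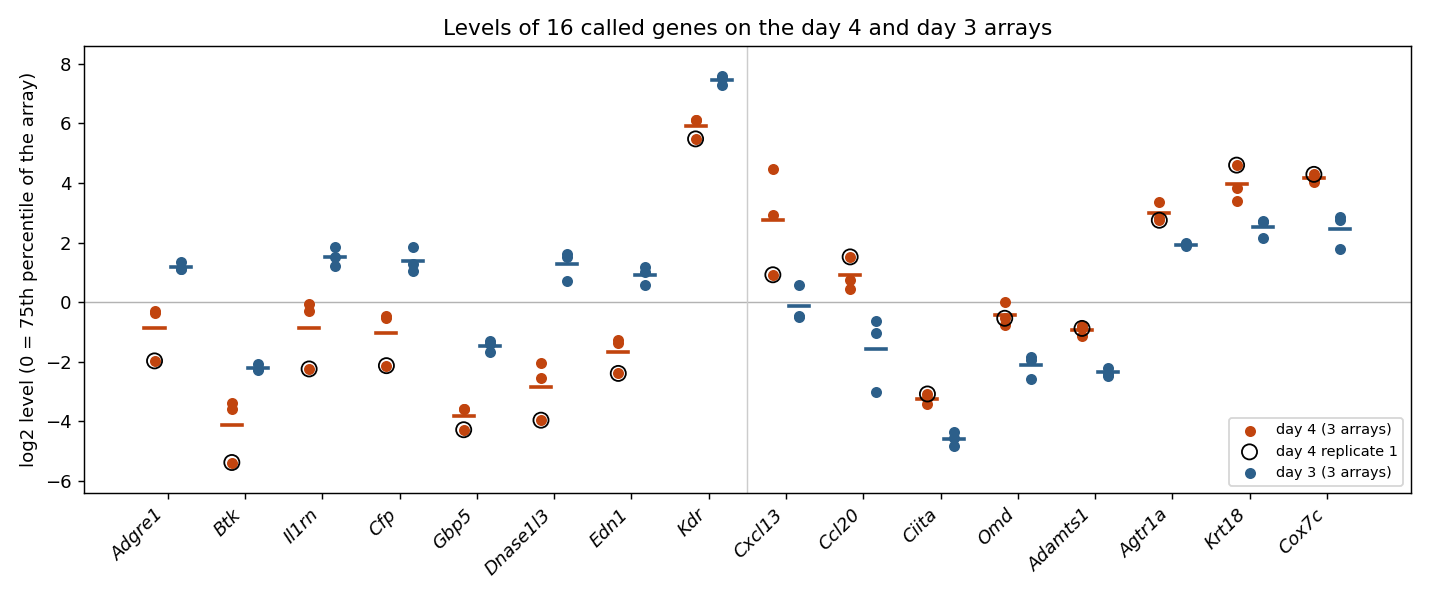
Log2 level (0 is the 75th percentile of the array) of 16 called genes on the 3 day 4 arrays and, to their right, the 3 day 3 arrays. Points are arrays, bars are means of 3 arrays, and rings mark day 4 replicate 1. The 8 genes on the left are lower on day 4 and the 8 on the right higher, and in none do the 2 groups overlap.

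Endothelial genes were lower on day 4, with Kdr and Robo4 called. Of 26 tested, day 4 lay wholly below day 3 in 15, against 14.5% of all genes. Of the 26, 2 were called lower, against 1.37% of all genes, with a median of -0.63. Kdr, the main VEGF receptor of endothelium, was at 5.48, 6.13 and 6.11 on day 4, against 7.58, 7.30 and 7.54 on day 3. It fell by 1.57 ± 0.23 (2.96-fold, adjusted p = 0.0045), and by 1.35 without day 4 replicate 1 (adjusted p = 0.026). Robo4, a guidance receptor of endothelium, fell by 1.15 ± 0.27 (adjusted p = 0.036), and its call was lost without that array (adjusted p = 0.15). Edn1, the precursor of the vasoconstrictor endothelin 1, was at -2.39, -1.27 and -1.37 on day 4, against 1.02, 1.18 and 0.57 on day 3. It fell by 2.60 ± 0.37 (6.06-fold, adjusted p = 0.0044), and its call was lost in 1 of 17 alternative settings. Pecam1 differed by -1.07 ± 0.35 (adjusted p = 0.11) and Ehd3, a membrane-trafficking protein of glomerular endothelium, by -1.23 ± 0.39 (adjusted p = 0.097).

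The largest fall of a gene with a current symbol was that of Dnase1l3, a secreted DNase that clears chromatin. It was at -3.96, -2.55 and -2.05 on day 4, against 0.70, 1.51 and 1.62 on day 3. The difference was -4.13 ± 0.65 (17.5-fold lower, adjusted p = 0.0069), and -3.58 without day 4 replicate 1 (adjusted p = 0.036). Depp1, a target of FOXO transcription factors, was at 3.27, 1.97 and 1.64 on day 4, against 4.94, 6.12 and 5.87 on day 3, a fall of 3.35 ± 0.66 (adjusted p = 0.018). Here day 4 replicate 1 was the highest of the day 4 arrays. Srpx2 and the macrophage transcription factor Spic were not well above background on any day 4 array. Taken against the lowest signal well above background, Srpx2 was at least 5.42-fold lower (adjusted p = 0.037) and Spic at least 3.83-fold lower (adjusted p = 0.043). Srpx2 passed the filter only through its day 3 arrays, the group where it was high. Both calls were lost without a filter on dim probes. The immune receptors Lilrb2 (-2.82 ± 0.58, adjusted p = 0.021) and Cd22 (-2.81 ± 0.67, adjusted p = 0.037) also fell. On day 4 replicate 1 they lay, at -6.77 and -6.48, under the dimmest signal well above background on that array (-4.91). When day 4 replicate 1 was left out, the calls of Srpx2, Spic, Lilrb2 and Cd22 were lost (adjusted p between 0.065 and 0.20), and that of Depp1 was kept (adjusted p = 0.033).

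The lists of mitosis and DNA replication genes had lower medians on day 4, and 0 of their members were called. Of 31 mitosis genes tested, 30 had a negative difference and 14 lay wholly below day 3, with a median of -1.27. Of 31 DNA replication genes, 30 were negative and 17 lay wholly below, with a median of -0.85. Of all genes, 14.5% lay wholly below. Ccnb2, cyclin B2, was at -2.71, 0.34 and 0.33 on day 4, against 1.20, 0.81 and 0.39 on day 3 (-1.48 ± 0.79, adjusted p = 0.30). Most of that difference came with replicate 1, without which it was -0.47 (adjusted p = 0.82). Mki67, a nuclear protein of dividing cells, differed by -0.78 ± 0.68 (adjusted p = 0.55) and the helicase subunit Mcm5 by -1.53 ± 0.69 (adjusted p = 0.23). Without day 4 replicate 1 the mitosis median was -0.46, and that of DNA replication -0.57.

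Fibrillar collagens and their cross-linking enzymes had a median of -0.05 over 28 genes, with 0 called. Col1a1, a chain of type I collagen, was at 1.57, 4.43 and 5.75 on day 4, against 4.56, 3.49 and 2.28 on day 3. The groups overlapped (0.47 ± 0.99, adjusted p = 0.83). Its sign turned to -0.44 without day 4 replicate 3 and to -0.11 without day 3 replicate 4, and it was 1.65 without day 4 replicate 1. Col3a1, of type III collagen, differed by 1.33 ± 0.81 (adjusted p = 0.37). Lox, which cross-links collagen, was at -0.79, 1.54 and 0.35 on day 4, against -1.72, -1.82 and -1.68 on day 3. All day 4 arrays were above all day 3 arrays, and the test was not passed (2.11 ± 0.66, adjusted p = 0.091). P4ha1, a prolyl hydroxylase of collagen, differed by 0.69 ± 0.18 (adjusted p = 0.057). The list median was 0.23 without day 4 replicate 1, again with 0 called.

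Basement membrane genes (0 of 16 called, median 0.06) and matricellular glycoproteins (0 of 26 called, median 0.08) lay close to the median of all genes, and both medians turned negative, to -0.06 and -0.04, after scaling to reference genes. Fn1, fibronectin, differed by 0.61 ± 0.47 (adjusted p = 0.49), Col4a1 by -0.07 ± 0.30 (adjusted p = 0.92), Tnc by -0.96 ± 0.59 (adjusted p = 0.38) and Spp1, osteopontin, by 1.12 ± 0.49 (adjusted p = 0.21). Omd, osteomodulin, a keratan sulfate proteoglycan, was the 1 of 14 proteoglycan genes called, against 1.63% of all genes called higher. It was at -0.54, 0.00 and -0.78 on day 4, against -2.58, -1.85 and -1.93 on day 3, a rise of 1.68 ± 0.36 (3.21-fold, adjusted p = 0.025). Adamts1, a protease that cleaves proteoglycans, was the 1 of 19 matrix protease genes called, against the same 1.63%. It was at -0.88, -0.81 and -1.15 on day 4, against -2.20, -2.40 and -2.47 on day 3, a rise of 1.41 ± 0.34 (adjusted p = 0.039). Without day 4 replicate 1 both differences were close to these, 1.73 for Omd and 1.38 for Adamts1, and neither was called (adjusted p = 0.095 and 0.15). The means of Adamts1 were highest on days 4 and 2, which were scanned together. It differed by 0.20 between days 2 and 1 and by 0.57 between days 4 and 2 (adjusted p = 0.49). The same 2 differences were 0.44 and 1.34 for Omd. Timp1, an inhibitor of matrix metalloproteinases, differed by -0.06 ± 0.35 (adjusted p = 0.95).

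Of 29 genes of TGF-beta, activin, BMP and PDGF signalling, 1 was called higher and 1 lower, with a median of -0.10. The shares of all genes were 1.63% and 1.37%. The one called lower was the ligand Bmp6. It was at -2.78, -2.24 and -2.77 on day 4, against -1.01, -1.15 and -1.35 on day 3, and fell by 1.43 ± 0.29 (adjusted p = 0.020), with the call lost without day 4 replicate 1 (adjusted p = 0.10). Grem1, a secreted BMP antagonist, differed by 1.50 ± 0.48 (adjusted p = 0.10), Tgfb1 by -1.02 ± 0.38 (adjusted p = 0.15) and Inhba, the activin A subunit, by -1.82 ± 0.98 (adjusted p = 0.30).

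Mesangial and pericyte markers had a median of 0.49 over 16 genes, with 1 called higher, against 1.63% of all genes. The median was 0.75 without day 4 replicate 1 and 0.21 without day 4 replicate 2. Agtr1a, the angiotensin II receptor, was at 2.75, 3.36 and 2.84 on day 4, against 1.98, 1.88 and 1.94 on day 3. It rose by 1.05 ± 0.23 (2.07-fold, adjusted p = 0.029). The call was lost without day 4 replicate 1 (1.17, adjusted p = 0.070) and kept in 7 of 17 alternative settings. Thy1, the target of the antibody, was at -0.89, 1.55 and 0.17 on day 4, against -0.17, -0.34 and -1.12 on day 3 (0.82 ± 0.59, adjusted p = 0.46). Itga8, the mesangial integrin, differed by 0.70 ± 0.48 (adjusted p = 0.44) and Pdgfrb by 0.49 ± 0.39 (adjusted p = 0.51). Contractile genes had a median of -0.03 with 0 of 14 called, and Tagln, transgelin, turned from -0.55 to 0.57 without day 4 replicate 1, where it was at 1.10 against 4.56 and 4.41 on the other day 4 arrays. Podocyte markers had 0 of 24 called and a median of -0.07, with Nphs1, nephrin, at -0.16 ± 0.21 (adjusted p = 0.71).

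Subunits of oxidative phosphorylation were higher on day 4 as a group. Day 4 lay wholly above day 3 in 24 of the 32 tested, against 16.6% of all genes. Of the 32, 3 were called higher, against 1.63% of all genes. Cox7c, of cytochrome c oxidase, was at 4.29, 4.05 and 4.15 on day 4, against 2.85, 2.77 and 1.77 on day 3. It rose by 1.70 ± 0.24 (3.26-fold, adjusted p = 0.0041), but its 2 probes gave 1.70 and 0.41. Its means were highest on days 4 and 2, which were scanned together. Cox7c differed by 0.65 between days 2 and 1, by 0.38 between days 4 and 2 and by -0.02 between days 5 and 3. Sdhb, of succinate dehydrogenase, rose by 0.87 ± 0.20 (adjusted p = 0.031) and Cox6c by 0.84 ± 0.20 (adjusted p = 0.037). Markers of the tubule, which adjoins the glomerulus, moved the same way. The median of 18 proximal tubule markers was 0.48, with 17 positive and 0 called, and the summed signal of the list lay between 10.26 and 10.98 on day 4, against 9.89 to 10.57 on day 3, with overlap. Day 4 replicate 1 was the highest day 4 array in 18 of these 18 and in 30 of the 32 oxidative phosphorylation genes. The part of tubule RNA in these differences was not tested. Krt18, a keratin of simple epithelia listed with the parietal epithelium of Bowman's capsule, rose by 1.43 ± 0.35 (2.69-fold, adjusted p = 0.042), the 1 call among 7 such markers. Without day 4 replicate 1 the proximal tubule median was 0.28, Cox7c alone of the oxidative phosphorylation genes was called, and the call of Krt18 was lost (1.10, adjusted p = 0.20). In the remaining lists 0 members were called. Their medians were 0.45 for the distal tubule and collecting duct, 0.40 for fatty acid oxidation, 0.26 for cathepsins and lysosome, 0.16 for glycolysis and 0.15 for chaperones of the endoplasmic reticulum. Immediate early genes had a median of -0.06, cytosolic ribosomal proteins -0.05, cyclins and kinases of the G1/S step -0.33 and reference genes 0.12.

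The scan days were set beside these differences. Days 2 and 1 were scanned on the same 2 scan days as days 4 and 3, in the same direction, and share no array with them. Between days 2 and 1, 90 genes were called (0.388%). Of the 379 genes higher on day 4 than on day 3, 296 (78.1%) were also higher on day 2 than on day 1, against 43.9% of all genes, with a median day 2 minus day 1 difference of 0.40 against -0.05. Of the 317 genes lower on day 4, 164 (51.7%) were also lower on day 2, against 56.1% of all genes, with a median of -0.02. In both comparisons and in the same direction, 18 of the higher and 11 of the lower genes were called. Of all genes, 0.177% were called higher and 0.211% lower between days 2 and 1. In the other direction, 1 of the higher and 1 of the lower genes were called between those days.

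**Figure D3:**
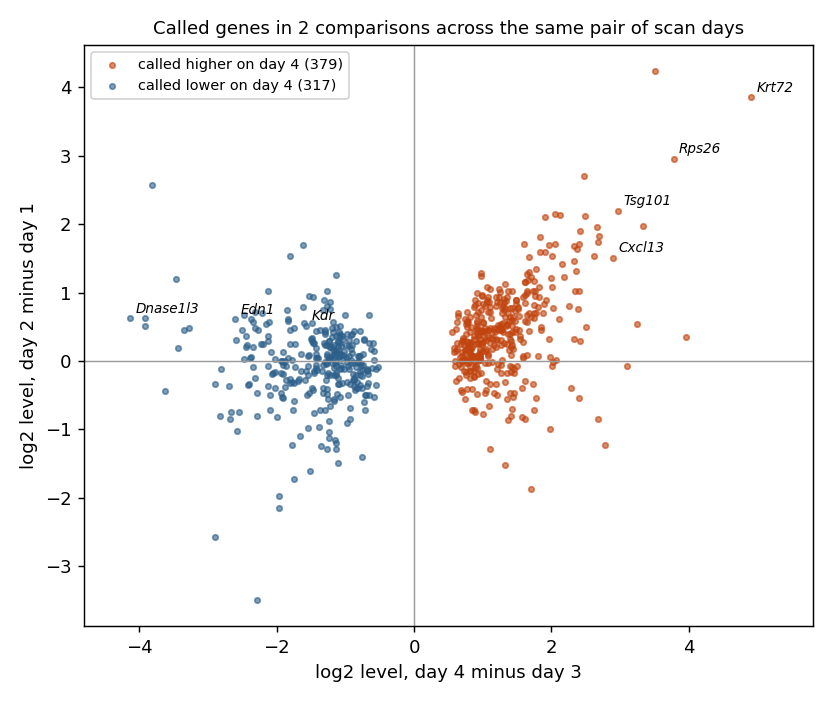
Log2 level on day 4 minus day 3 (horizontal) and on day 2 minus day 1 (vertical) of the 696 called genes, 379 higher and 317 lower on day 4. The points on the right lie mostly above 0 on the vertical axis (296 of 379), and those on the left lie on both sides of it (164 of 317 below).

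The gene with the smallest adjusted p, Krt72, a type II keratin of the hair follicle sheath, was at -2.18, -2.48 and -1.75 on day 4, against -7.10, -6.99 and -7.04 on day 3. It was not well above background on any day 3 array, and was at least 6.14-fold higher on day 4 (adjusted p = 3.8e-07). Its differences were 3.86 between days 2 and 1, 0.62 between days 4 and 2, and -0.23 between days 5 and 3. The level thus followed the scan day on all 18 arrays. Rps26, a ribosomal protein gene with near-identical copies in the genome, so that its signal is uncertain, was at 2.40, 2.84 and 2.70 on day 4, against 0.12, -0.42 and -3.10 on day 3. It rose by 3.78 ± 0.58 (13.8-fold, adjusted p = 0.0057), with 2.96 between days 2 and 1 and 0.01 between days 4 and 2. Tsg101, a subunit of the ESCRT-I sorting complex, was at -1.74, -1.65 and -1.67 on day 4, against -4.01, -4.12 and -5.86 on day 3. Its differences were 2.97 ± 0.40 (adjusted p = 0.0040), then 2.20 between days 2 and 1 and 0.12 between days 4 and 2.

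Among the falls, 4 of the named genes that kept their call without day 4 replicate 1 had another pattern. In all, 30 genes were called lower without that array, and the pattern of the others is not given. Dnase1l3 differed by 0.63 between days 2 and 1, by -2.78 between days 4 and 2 and by -3.84 between days 5 and 3, the last 2 within a scan day. The same 3 differences were 0.61, -1.43 and -1.91 for Edn1, 0.52, -1.25 and -0.78 for Kdr, and 0.20, -1.52 and -1.76 for Gbp5. None of these within-scan-day differences passed its own test (adjusted p between 0.056 and 0.19). Depp1, which also kept its call, differed by 0.45, by -2.39 (adjusted p = 0.16) and by -1.66 (adjusted p = 0.30) in the same order. The comparison of days 4 and 2 shares the day 4 arrays, and that of days 5 and 3 the day 3 arrays, so neither is independent of the first. Over all genes, 23 were called between days 4 and 2 (0.0991%), 14 of them higher (0.0603%) and 9 lower (0.0388%). Between days 5 and 3, 2 were called (0.00861%), 1 higher and 1 lower (0.00431% each). Of the list members, Agtr1a was called higher (1.46, adjusted p = 0.032) and Syk lower (-1.19, adjusted p = 0.018) between days 4 and 2, and none between days 5 and 3.

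**Figure D4:**
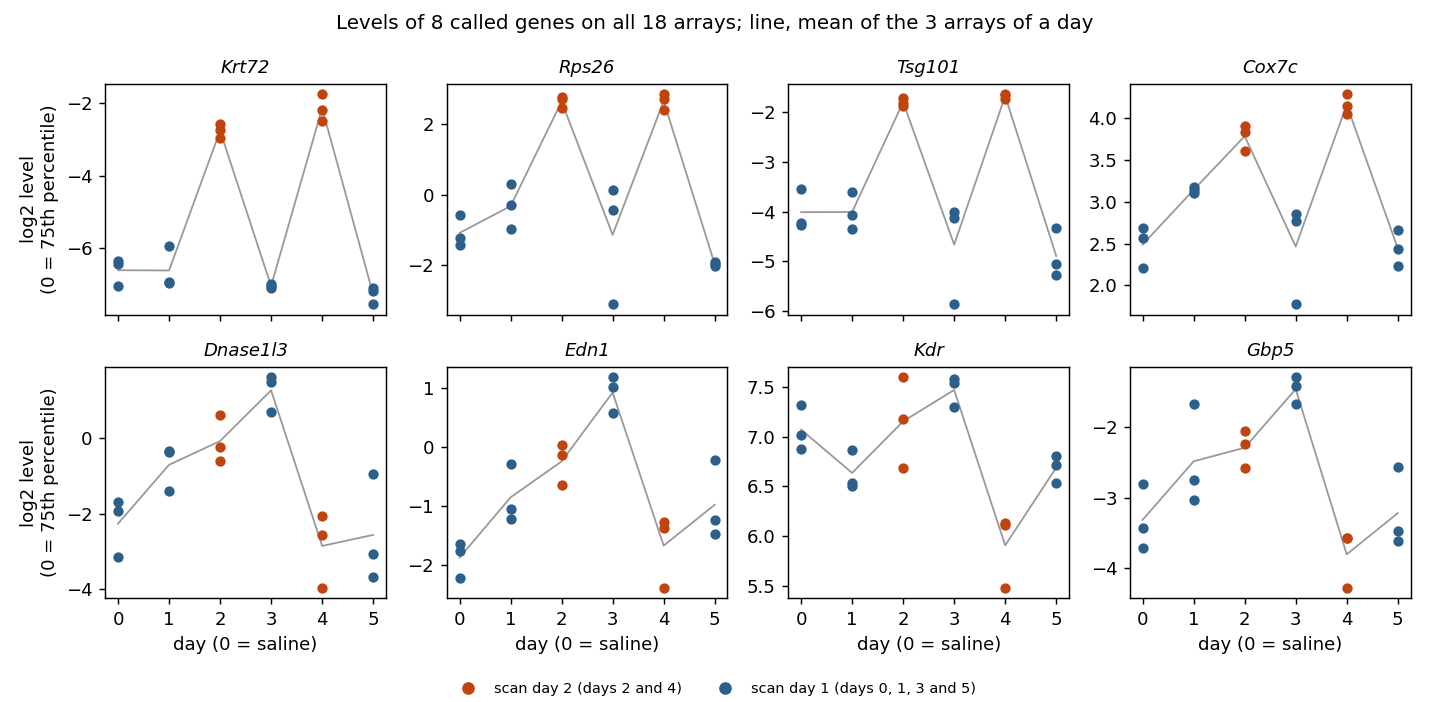
Log2 level (0 is the 75th percentile of the array) of 8 called genes by day, on 18 arrays. Points are arrays, coloured by scan day, and the line joins the means of 3 arrays. Krt72, Rps26, Tsg101 and Cox7c are high on days 2 and 4, and Dnase1l3, Edn1, Kdr and Gbp5 have their highest mean on day 3.

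Other large rises differed in how far days 2 and 1 shared them. Sel1l2, related to an adaptor of endoplasmic reticulum protein degradation, was not well above background on any day 3 array and was at least 1.54-fold higher on day 4 (adjusted p = 0.0041). It differed by -1.22 between days 2 and 1 and by 2.75 between days 4 and 2 (adjusted p = 0.012). Abra, an actin-binding protein of muscle, was at -0.85, -0.73 and -2.03 on day 4, against -3.32, -3.74 and -3.75 on day 3. It rose by 2.40 ± 0.40 (adjusted p = 0.0090), with -0.54 between days 2 and 1 and 2.08 between days 4 and 2 (adjusted p = 0.068). Nap1l5, at least 5.26-fold higher on day 4 (adjusted p = 0.011), had 0.54 between days 2 and 1 and 2.14 between days 4 and 2 (adjusted p = 0.15). Cnr1, the cannabinoid receptor, was at least 1.74-fold higher (adjusted p = 0.0039). It differed by 1.54 between days 2 and 1 and by 0.83 between days 4 and 2 (adjusted p = 0.30). Its means were thus highest on the 2 days scanned together. Sel1l2 and Cnr1 passed the filter only through their day 4 arrays, the group where they were high. Their calls were kept without a filter on dim probes. Both calls were lost after normexp background correction, on all arrays and on 16. The differences on all arrays were then 0.26 for Sel1l2 and 0.23 for Cnr1, in place of 2.78 and 2.62.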

How the data were processed

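Per the file headers, the authors made the intensity values with Agilent Feature Extraction 10.7.3.1 (background subtraction and detrending within each array, build rn4), without scaling between arrays. The deposited value table holds log2 values normalized separately for days 0, 2 and 4 and days 1, 3 and 5 (how is not stated in the labels or headers), so it was used within each set only. From the processed intensity, log2 minus the 75th percentile over non-control spots was computed, spots marked as outliers were dropped and repeated spots averaged. Probes well above background on all 3 arrays of a time point entered. Names came from the RefSeq gene table (21746 of 41012 probes matched), and a gene is its probe with the highest mean. limma 3.58.1 in R 4.3.3 fitted all 18 arrays, and errors are SE with n = 3 arrays per day. The number of arrays limits the precision. For a probe with no array well above background on one day, "at least N-fold" sets the brighter mean against a floor, which on each array is the dimmest well-above-background signal, or the probe's own signal where that is higher. Genes named are the 15 largest rises and 15 largest falls among called genes with a symbol whose arrays do not overlap, up to 4 called members of each list (or the member with the smallest adjusted p), and a fixed set; exceptions are said to be so. Members and lists were chosen with earlier results of these data known. Replicate numbers 2 and 3 occur on both days, and the deviations of same-numbered arrays correlated at 0.28 and -0.03, so arrays were not treated as paired. Alternatives covered the scaling, background, filter, probe choice, arrays in the fit, slide and replicate blocks, and each array left out. Figures were drawn with matplotlib 3.10.9. Some genes that the rule names are not reported here.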

Additional observations from a re-analysis of the deposited data

How the results depend on the processing

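Between days 4 and 3, 376 genes were called without a filter on dim probes (219 higher, 157 lower), 14 when only the 6 arrays were fitted (7 and 7), and 4 after normexp background correction (2 and 2), whose fit failed on 2 arrays of other days. Normexp on the other 16 arrays, chosen after seeing the data, called 1000 (433 higher, 567 lower, or 43.3% higher against 54.5%). Scaling to the array median called 251 higher, and scaling to reference genes, which moved the median of all genes from 0.04 to -0.08, called 922 (333 higher, 589 lower, or 36.1% higher). The replicate block called 23 (12 higher, 11 lower). Leaving out 1 array at a time gave 96 to 504 genes, 66 to 282 higher and 30 to 227 lower. Days 4 and 2 (23 genes) gave 239 with reference genes, 0 with normexp, 67 with normexp on 16 arrays, 8 with the replicate block, 6 in the authors' deposited table, and 9 to 30 with 1 array left out. Days 5 and 3 (2 genes) gave 1 after quantile normalization, with reference genes and without the filter, 0 with normexp, with the replicate block and in the deposited table, 622 with normexp on 16 arrays, and 1 to 117 with 1 array left out. Days 2 and 1 (90 genes) gave 176 with reference genes, 0 with normexp, 58 without the filter, 2 with the replicate block, 16 with normexp on 16 arrays, and 43 to 271 with 1 array left out. Where a count of 0 stands, limma's unadjusted p was under 0.05 in 641 to 3802 genes with normexp, in 2404 for days 5 and 3 with the replicate block and in 2896 in the deposited table. The cause of these shifts was not tested, and the effect of fewer arrays in the fit was not separated from dependence on a given array. Among named genes, 11 differences changed sign: Col1a1 (-0.44 without day 4 replicate 3, -0.11 without day 3 replicate 4), Col4a1 (0.21 without day 4 replicate 1, 0.01 without day 3 replicate 2), Synpo (0.17 with the replicate block, 0.10 without day 4 replicate 3, 0.19 without day 3 replicate 4), Tagln (0.57 without day 4 replicate 1) and Timp1 (0.10 with the replicate block, 0.32 without day 4 replicate 1, 0.06 without day 3 replicate 2). With 1 array left out, their ranges were -0.44 to 1.65, -0.24 to 0.21, -0.15 to 0.19, -1.15 to 0.57 and -0.33 to 0.32, in the same order. None of these genes was called. Of the other values of named genes, 1330 kept direction and side of the threshold, 398 lost a call and 29 gained one. Krt72, Rps26 and Edn1 stayed called in 16 of 17 alternatives, and Dnase1l3, Kdr, Tsg101 and Sel1l2 in 15.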

Other observations

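The probes of genes higher on day 4 were poorer in G and C than those of all genes. Their median share was 38.3% (quartiles 35% and 43.3%) over 379 genes, against 45% (41.7% and 53.3%) over the 317 genes lower on day 4 and 43.3% (38.3% and 48.3%) over all 23220. Of the 379 higher genes, 164 (43.3%) had a current symbol, against 193 of the 317 lower genes (60.9%) and 52.7% of all genes and transcripts. Among the higher genes 49 were not well above background on any day 3 array, and among the lower genes 27 were not on any day 4 array.

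Genes called between days 4 and 3 and between days 2 and 1 in the same direction, chosen after their values were seen, also included Ptpn12, a tyrosine phosphatase (1.90 between days 4 and 3, 2.11 between days 2 and 1), and Tob1, an antiproliferative protein (1.61 and 1.16). On the lower side, Aak1, a kinase of clathrin adaptors, differed by -1.14 and -1.28, and Scgb1a1, a secretoglobin, by -1.27 and -1.29.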
